A study of Mus musculus with 6 samples.

Results

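Heat shock proteins and their DNAJ co-chaperones were examined in mouse veins with a 24 h thrombus and in control samples. Members were chosen by gene name, as the Hspa, Hspb, Hspd, Hspe, Hsph and Hsp90 genes and the Dnaja, Dnajb and Dnajc genes. They came to 69 of the 17761 genes in the expression table, 26 heat shock proteins and 43 DNAJ genes. Bulk RNA-seq was run on 3 samples titled Control and 3 titled Model. In the Model, per the study's design text, the inferior vena cava (a large abdominal vein) was tied off to cause acute thrombosis, and vein and clot were both collected at 24 h. All 6 samples carry the tissue name thrombus, and the treatment of the Control animals, their strain, age and genotype are not stated in the labels. Nor is it stated that replicates are different animals, so the p-values cover only the variation among these samples, and this variation may be technical.

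Chaperones bind unfolded stretches of other proteins and let them fold, move or be destroyed. HSP70 proteins do so in cycles of ATP use that DNAJ proteins start by delivering a client, small heat shock proteins hold unfolded proteins without ATP, and HSP90 proteins finish the folding of kinases and hormone receptors. Each compartment has its own set. In the cytosol, heat and damage activate the transcription factor HSF1, which binds heat shock elements in front of chaperone genes. In the endoplasmic reticulum (ER), where secreted and membrane proteins fold, unfolded proteins activate ATF6, IRE1 and PERK, and ER stress response elements in front of chaperone genes answer to that pathway. Mitochondria import most of their proteins unfolded and rely on their own HSP70, HSP60 and HSP10. The members were sorted by the known location of their proteins into 39 cytosolic and nuclear, 13 ER, 10 mitochondrial and 7 other or uncertain genes.

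Both regulatory systems read short elements near the gene start, and the genes shown here were picked among the members that hold one. Promoter sequences are shown for Hspa1b, Hspb1 and Hspa5, which passed the test of Model against Control given below. Those of Hspa1a, Hsp90b1 and Dnajc3, which did not pass, are also shown. The sequences come from RefSeq on GRCm38.p6, where 56 of the 69 members had a window of 250 bases before to 50 bases after the start. The other 13, with Hspa8, Hsp90aa1, Hsp90ab1 and Hspa9 among them, had no window and were not searched for elements. The 250 bases before the start are printed 5′ to 3′ on the strand of the gene. In the first 3, capitals mark the fixed letters of a heat shock element dimer, GAANNTTC or TTCNNGAA. In the other 3, they mark the fixed letters of the ER stress response element, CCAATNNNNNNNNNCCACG or, on the other strand, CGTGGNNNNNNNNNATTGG. The windows lie at chr17:34959239-34959488, minus strand, for Hspa1b, at chr17:34972157-34972406, minus strand, for Hspa1a, and at chr5:135887669-135887918, plus strand, for Hspb1. Those of Hspa5, Hsp90b1 and Dnajc3 lie at chr2:34771840-34772089, plus strand, at chr10:86705445-86705694, minus strand, and at chr14:118937682-118937931, plus strand.
Hspa1b: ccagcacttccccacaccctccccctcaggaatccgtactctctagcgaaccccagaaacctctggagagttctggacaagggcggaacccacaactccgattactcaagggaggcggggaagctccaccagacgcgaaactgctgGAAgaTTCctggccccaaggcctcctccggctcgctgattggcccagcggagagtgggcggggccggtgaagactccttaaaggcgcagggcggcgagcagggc
Hspa1a: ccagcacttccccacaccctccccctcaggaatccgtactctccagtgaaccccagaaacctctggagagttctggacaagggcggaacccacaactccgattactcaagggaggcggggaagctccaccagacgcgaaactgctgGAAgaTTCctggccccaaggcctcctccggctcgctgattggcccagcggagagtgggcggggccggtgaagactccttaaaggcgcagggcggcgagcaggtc
Hspb1: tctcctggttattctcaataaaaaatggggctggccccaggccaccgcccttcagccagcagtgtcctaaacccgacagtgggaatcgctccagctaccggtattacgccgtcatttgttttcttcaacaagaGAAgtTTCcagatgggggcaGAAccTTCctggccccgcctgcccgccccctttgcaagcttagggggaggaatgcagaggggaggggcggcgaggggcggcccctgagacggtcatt
Hspa5: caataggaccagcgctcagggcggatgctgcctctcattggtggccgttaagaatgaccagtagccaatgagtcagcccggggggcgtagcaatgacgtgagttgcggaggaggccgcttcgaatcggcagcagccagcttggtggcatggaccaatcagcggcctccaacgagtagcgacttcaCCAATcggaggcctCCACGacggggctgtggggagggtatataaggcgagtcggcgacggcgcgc
Hsp90b1: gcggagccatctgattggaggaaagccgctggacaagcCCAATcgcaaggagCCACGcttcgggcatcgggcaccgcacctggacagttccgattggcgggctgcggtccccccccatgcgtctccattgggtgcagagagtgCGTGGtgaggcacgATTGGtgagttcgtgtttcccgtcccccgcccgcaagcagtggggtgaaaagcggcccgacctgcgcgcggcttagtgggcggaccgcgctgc
Dnajc3: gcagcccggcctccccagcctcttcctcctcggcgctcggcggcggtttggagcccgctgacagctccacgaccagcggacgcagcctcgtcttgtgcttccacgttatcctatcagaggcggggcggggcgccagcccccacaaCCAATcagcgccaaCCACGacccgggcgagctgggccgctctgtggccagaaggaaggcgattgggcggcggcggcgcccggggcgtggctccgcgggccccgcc

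Each of the 2 dimer forms is its own reverse complement, so the search covered both strands. At least 1 dimer was found in the windows of 15 of the 56 member genes (26.8%) and of 17% of all 27025 genes with a window. Among these members only Hspa1b and Hspb1 passed the test given below. The others were Hspa1a, Hsph1, Hspb6, Hspb8, Dnaja1, Dnaja4, Dnajb4, Dnajb6, Dnajc27, Dnajc5g (not tested), the ER gene Dnajc10 and the mitochondrial Hspd1 and Hspe1. A trimer, in which dimers overlap (GAANNTTCNNGAA or TTCNNGAANNTTC), was in 4 members, Dnajb6, Hspd1, Hspe1 and Hsph1, and in 0.662% of all genes. The longest run was an 18-base stretch between Hspd1 and Hspe1, mitochondrial genes that lie head to head on opposite strands and share it. On the strand of Hspd1, at chr1:55088059-55088076, minus strand, it reads as follows.
Hspd1: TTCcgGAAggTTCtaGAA

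The ER stress response element was in 3 members, Hspa5, Dnajc3 and Hsp90b1, all of the ER class, and in 0.137% of all genes. Hsp90b1 held 2 copies, in opposite directions. The second form of the element (ATTGG, any base, then CCACG, both strands) was in 1 member, Dnajb11, also of the ER class, and in 0.0444% of all genes. These are matches of letters in a short window, and binding was not measured.

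Total counts ranged from 25336173 to 38118463 per library, lower in Model than in Control. On principal components of log2 levels, Control 1 stood alone on the first (36.9% of variance) and Model 1 on the next (25.3%). Correlations of log2 levels were 0.793 to 0.904 within groups and 0.706 to 0.817 between them. Levels below are CPM, a gene's counts scaled to a common library total after TMM normalization, and levels of different genes are compared per kilobase (kb) of exon. Summed levels of neutrophil markers were 44.7 to 141 CPM in Control and 3510 to 7125 CPM in Model, with 9 of 9 tested markers higher. Those of platelet markers were 139 to 277 and 718 to 1766 CPM (8 of 8 higher), those of red cell markers 322 to 446 and 4894 to 28680 CPM (5 of 6 higher), and those of T cell markers 496 to 1329 and 149 to 252 CPM (6 of 8 lower). B cell markers summed to 902 to 1548 CPM in Control and at most 588 CPM in Model (4 markers lower). Hepatocyte markers summed to 5552 CPM in Model 2, to 605 CPM in Control 1 and to 34.4 to 181 CPM in the remaining libraries. The main results are therefore also given without Control 1 and Model 2 together. Smooth muscle markers summed to 3324 to 5036 CPM in Control and 1285 to 3022 CPM in Model (0 of 10 called). The labelled tissue thus held red cell, platelet and neutrophil markers at high levels in the Model libraries, and vessel wall markers in both groups. In bulk tissue, a change in the share of cells that carry a transcript and a change in its amount per cell cannot be told apart.

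Of the 69 members, 62 passed the filter on low counts and were tested. The other 7 (Dnajb7, Hspa1l, Hspb2, Hspb9, Hspa13, Dnajc22 and Dnajc5g) had at most 116 counts in any library. Transcripts of 3 members rose in the ligated veins, the inducible cytosolic HSP70 Hspa1b, the small heat shock protein Hspb1 and the ER HSP70 Hspa5, and 0 fell (edgeR quasi-likelihood test, adjusted p under 0.05 over all 13907 tested genes). That is 3 of 62, beside 4.07% of all tested genes called in either direction and 2.71% called higher and 1.36% called lower. At an unadjusted p under 0.05 there were 9 members, 7 heat shock proteins and 2 DNAJ genes, beside 2200 of the 13907 genes. DESeq2 called 4 members higher, beside 9.05% of its genes called in either direction and 4.75% higher, and limma-voom 3, beside 3.32% and 2.5%. Neither tool called a member lower. All 3 Model libraries lay above all 3 Control libraries for 6 members and below them for 4, beside 12.1% and 11.4% of all tested genes.

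Heat shock proteins and DNAJ genes are described side by side, with no test of a difference between them. Of 22 tested heat shock proteins 17 had a positive log2 fold change, with a median of 0.47, and of 40 tested DNAJ genes 17 did, with a median of -0.04. The median of all tested genes was -0.01, and 49.6% of them were positive. Among the heat shock proteins 13 of 22 (59.1%) had their highest level in Model 3, and among the DNAJ genes 6 of 40 (15%), beside 14.2% of all tested genes. By compartment, the median log2 fold change was 0.21 for 35 cytosolic and nuclear members (2 higher), 0.06 for 12 ER members (1 higher), -0.24 for 10 mitochondrial members (0 called) and -0.02 for 5 others (0 called). The ER median was 0.22 without Model 2, and the mitochondrial one was 0.18 without Control 1 and Model 2 together. Within the ER class the 2 tested heat shock proteins had log2 fold changes of 1.899 and 0.75, while the 10 DNAJ genes lay between -0.65 and 0.53.

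**Figure D1:**
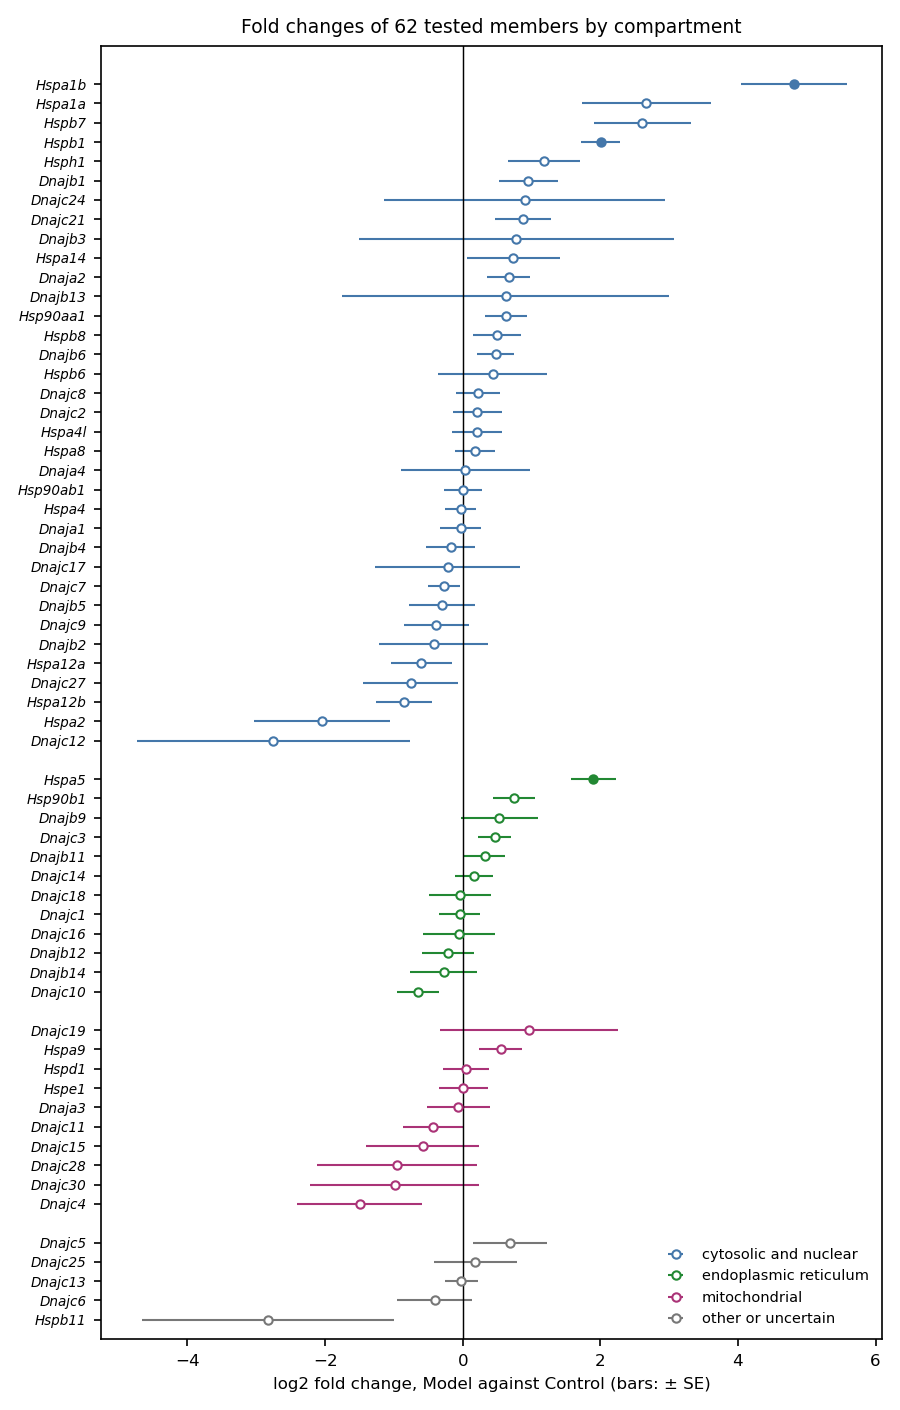
Log2 fold changes of the 62 tested members, Model against Control, grouped by compartment and sorted within it; points are edgeR estimates, bars are ± 1 SE, and filled points passed the test. Filled points are Hspb1 and Hspa1b among the cytosolic members and Hspa5 in the ER, and the other points lie on both sides of 0.

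Hspa1b encodes the inducible HSP70 of the cytosol, a protein that is scarce in resting cells and made in bulk after damage. The gene lies at chr17:34956436-34959238 on the minus strand of GRCm38. It was measured at 1.33, 7.06 and 6.86 CPM in the 3 Control libraries and at 51.9, 80.4 and 296.9 CPM in the 3 Model libraries. All 3 Model libraries were above all 3 Control libraries, with Model 3 the highest by far. The log2 fold change was 4.81 (SE 0.77, adjusted p = 0.0034), and it was 3.70 without Model 3 (adjusted p = 0.0128). limma-voom did not call it (adjusted p = 0.0865).

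Hspa1a, at chr17:34969190-34972156 on the same strand, encodes nearly the same protein. It was measured at 24.6, 13.4 and 16.8 CPM in Control and at 5.86, 45.6 and 297.0 CPM in Model, so the groups overlapped and Model 1 was the lowest of all 6 libraries. Its log2 fold change of 2.67 (SE 0.94) did not pass the test (adjusted p = 0.164). It was 0.48 without Model 3, and 3.22 and past the threshold without Model 1 (adjusted p = 0.0324).

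Reads from these 2 genes are hard to separate. Their coding sequences were 99.43% identical, with 8 substitutions and a 3-base gap over 1926 and 1929 bases, and they shared an identical run of 638 bases. Their promoter windows differed at 4 of 300 bases, C44T, T47C, T249G and C276T, written from Hspa1a to Hspa1b and counted from 1 at the 5′ end of the window. The heat shock element at bases 147 to 154 was the same in both. Of the counts given to either gene, Hspa1b received 5.14%, 34.5% and 28.9% in Control and 89.8%, 63.8% and 49.99% in Model. The counting method is not given in the sources used here, so the split between them is uncertain and their sum is the safer value. The sum was 25.9, 20.4 and 23.7 CPM in Control and 57.7, 126 and 594 CPM in Model, with no overlap. Refitted as 1 gene over the whole table, the pair rose by 3.47 on the log2 scale (adjusted p = 0.0111).

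**Figure D2:**
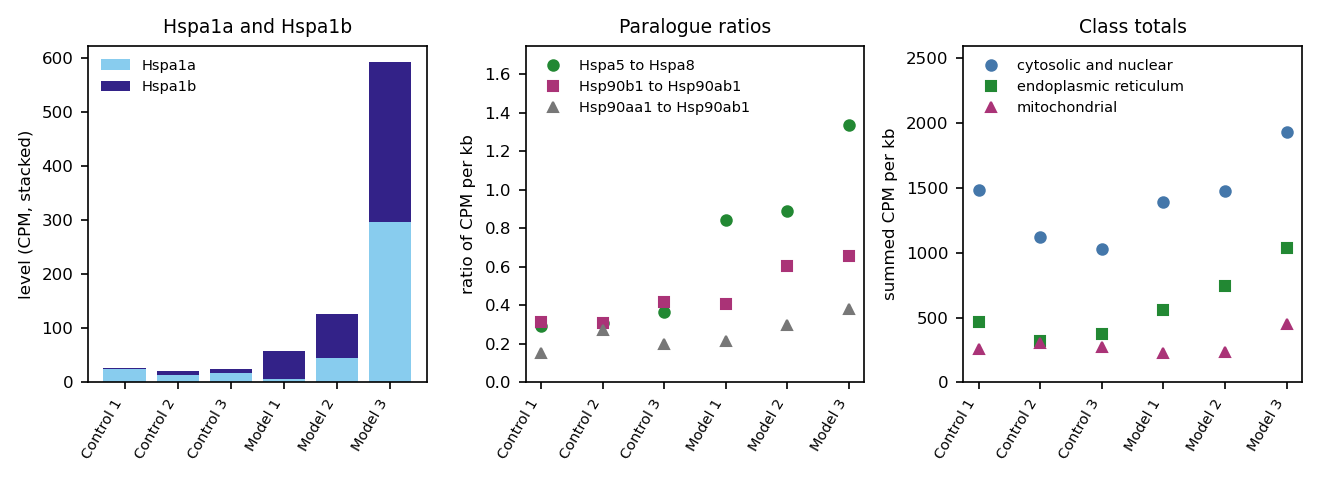
Left, stacked levels of Hspa1a and Hspa1b in CPM in each library; middle, ratios of CPM per kb between related genes; right, summed CPM per kb of 3 compartments. The summed pair is lowest in Control at 20.4 to 25.9 CPM and reaches 594 CPM in Model 3, Hspa5 to Hspa8 is 0.291 to 0.366 in Control and 0.841 to 1.34 in Model, and the ER total is 321 to 467 in Control and 561 to 1033 in Model. Hspa5 is part of the ER total, at a mean of 107 CPM per kb in Control and 400 in Model.

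The constitutive cytosolic chaperones were abundant in both groups and did not pass the test. Hsp90ab1, the constitutive HSP90, and Hspa8, the constitutive HSP70, had the highest levels per length, 401 and 360 CPM per kb on average over the 6 libraries. In the Model libraries alone the ER gene Hspa5, at 400 ± 164 (SD, n = 3), was on a par with them (401 and 382 CPM per kb). Hspa8 was measured at 1976, 1187 and 1201 CPM in Control and at 1343, 1721 and 1867 CPM in Model, which gave 0.18 for the log2 fold change (SE 0.29, adjusted p = 0.852). Hsp90ab1 was at 1579, 1060 and 962 CPM in Control and at 1049, 1194 and 1367 CPM in Model. Its fold change was 0.00 (SE 0.28, adjusted p = 0.999) and had a negative sign under RLE and upper-quartile scaling. In both genes Control 1 was the highest library and the groups overlapped. Hspa4, a nucleotide exchange factor of the HSP110 family, lay between 171 and 213 CPM in all 6 libraries.

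The heat-inducible cytosolic genes Hsph1, Dnajb1 and Hsp90aa1 had higher values mainly in Model 3. The cytosolic Dnaja1 and Dnajb4, described below, were highest in Control 1 and Control 3. Hsph1, an HSP110 that resets HSP70, was at 121, 59.9 and 45.8 CPM in Control and at 92.8, 79.1 and 344 CPM in Model. Its log2 fold change of 1.19 (SE 0.53, adjusted p = 0.294) was 0.18 without Model 3. Dnajb1, the DNAJ partner of inducible HSP70, was at 54.6, 30.4 and 30.7 CPM in Control and at 59.1, 48.5 and 116 CPM in Model (fold change 0.95 on the log2 scale, SE 0.43, adjusted p = 0.30). Hsp90aa1, the inducible HSP90, ranged from 252 to 374 CPM in Control and from 291 to 686 CPM in Model (0.63, SE 0.31, adjusted p = 0.351). In these 3 genes the groups overlapped and Model 3 was the highest library. That library was also the shallowest, at 25336173 counts. Its summed neutrophil, platelet and red cell marker levels were 3768, 718 and 4894 CPM, the lowest of the Model libraries for platelet and red cell markers. Whether a property of Model 3 as a sample bears on these values was not tested.

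**Figure D3:**
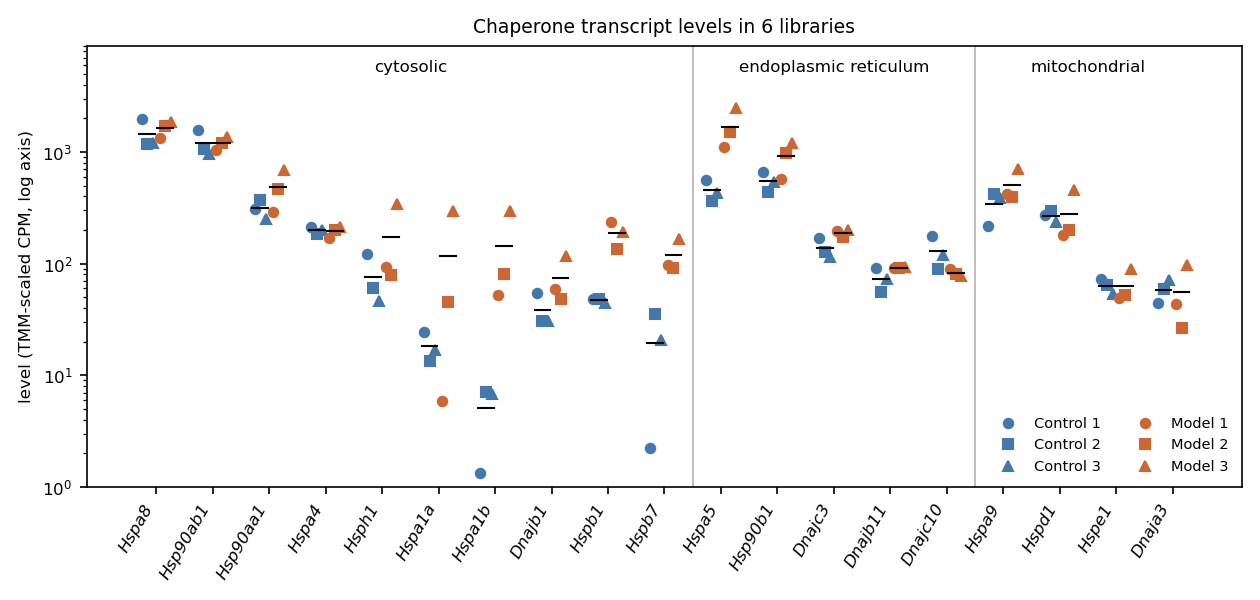
Levels of 19 members in each of the 6 libraries, in TMM-scaled CPM on a log axis, by compartment; each symbol is 1 library and short black bars are group means. Hspa1b, Hspb1, Hspb7, Hspa5 and Dnajc3 are higher in Model and Dnajc10 is lower, without overlap between the groups. Hspa8, Hsp90ab1 and Hspa4 lie in the same range in both, and Model 3 (orange triangles) is at the top for many genes.

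Of 5 tested Hspb genes, 1 was called higher, beside 2.71% of all tested genes. The 5 include Hspb11, which was sorted under other or uncertain location (log2 fold change -2.835, SE 1.83, adjusted p = 0.508). Hspb1 (HSP27), which binds unfolded proteins and actin filaments and is abundant in muscle and stressed cells, lies at chr5:135887919-135889563 on the plus strand. It was measured at 47.8, 48.1 and 44.4 CPM in Control and at 237, 134 and 192 CPM in Model. The Control libraries were close to each other and all 3 Model libraries were well above them. The log2 fold change was 2.004 (SE 0.28, adjusted p = 0.00153), and Hspb1 passed the test under all 15 alternatives run, with an adjusted p of at most 0.0332. In contrast to Hspa1b, its highest library was Model 1. Hspb1 was, with 182 CPM per kb in Model, the most abundant small heat shock protein per length.

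Hspb7, a small heat shock protein of heart and skeletal muscle, at chr4:141420779-141425311, had the most positive fold change after Hspa1b and Hspa1a. It was at 2.21, 35.4 and 20.5 CPM in Control and at 96.8, 90.9 and 168 CPM in Model, with no overlap. The log2 fold change was 2.61 (SE 0.71), short of the threshold (adjusted p = 0.0625). Control 1, the library that stood apart, had by far the lowest level, and without it the fold change was 2.08 and passed (adjusted p = 0.0265). It also passed without Control 2 (3.38, adjusted p = 0.0244), with DESeq2 (adjusted p = 0.00111) and with limma-voom (adjusted p = 0.0207). It did not pass without Control 3, Model 1, Model 2 or Model 3 in turn (adjusted p between 0.0628 and 0.145). Nor did it pass with RLE scaling (0.0591), upper-quartile scaling (0.0955), a minimum count of 100 (0.0777) or a required log2 fold change of 1 (0.299). It was called in 7 of 15 alternatives.

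Hspb8, a partner of Bag3 in clearing damaged muscle protein, was at 36.8 to 60.4 CPM in Control and 58.7 to 72.7 CPM in Model (fold change 0.50 on the log2 scale, SE 0.35, adjusted p = 0.559). Hspb6, abundant in smooth muscle, ranged from 7.21 to 20.8 CPM in Control and from 4.73 to 30.8 CPM in Model (adjusted p = 0.872). Skeletal muscle markers summed to 25.7 to 42.3 CPM in Control and 84.3 to 268 CPM in Model, with 1 of 7 tested markers higher and none at 0 in every library. Cardiac markers summed to 26.9 to 61.3 CPM in Control and 4.18 to 19.1 CPM in Model (0 of 4 called). Model 3 had the highest Hspb7 level and the lowest skeletal and cardiac muscle marker levels of the 3 Model libraries. The part of these cell types in the Hspb1 and Hspb7 values was not tested.

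Among the cytosolic members with values on the low side in Model, none passed the test. Hspa2, an HSP70 best known from the testis, was at 24.1, 14.46 and 5.33 CPM in Control and at 3.31, 4.08 and 3.23 CPM in Model (fold change -2.05 on the log2 scale, SE 0.99, adjusted p = 0.344). The groups did not overlap, but the Control libraries varied widely where the Model libraries were alike. Hspa12b, an atypical HSP70 of endothelium, was at 39.2 to 93.4 CPM in Control and 30.0 to 42.5 CPM in Model (-0.85, SE 0.41, adjusted p = 0.338). Endothelial markers summed to 1836 to 2221 CPM in Control and 1811 to 2723 CPM in Model. The part of endothelial cells in the Hspa12b values was not tested. The small GTPase with a J domain Dnajc27 had a fold change of -0.75 (SE 0.69, adjusted p = 0.678), and -0.04 without Control 1, its highest library. Dnaja1, Dnajb4 and Dnajb5, DNAJ partners of cytosolic HSP70, had fold changes between -0.30 and -0.03, within 1 SE of 0.

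**Figure D4:**
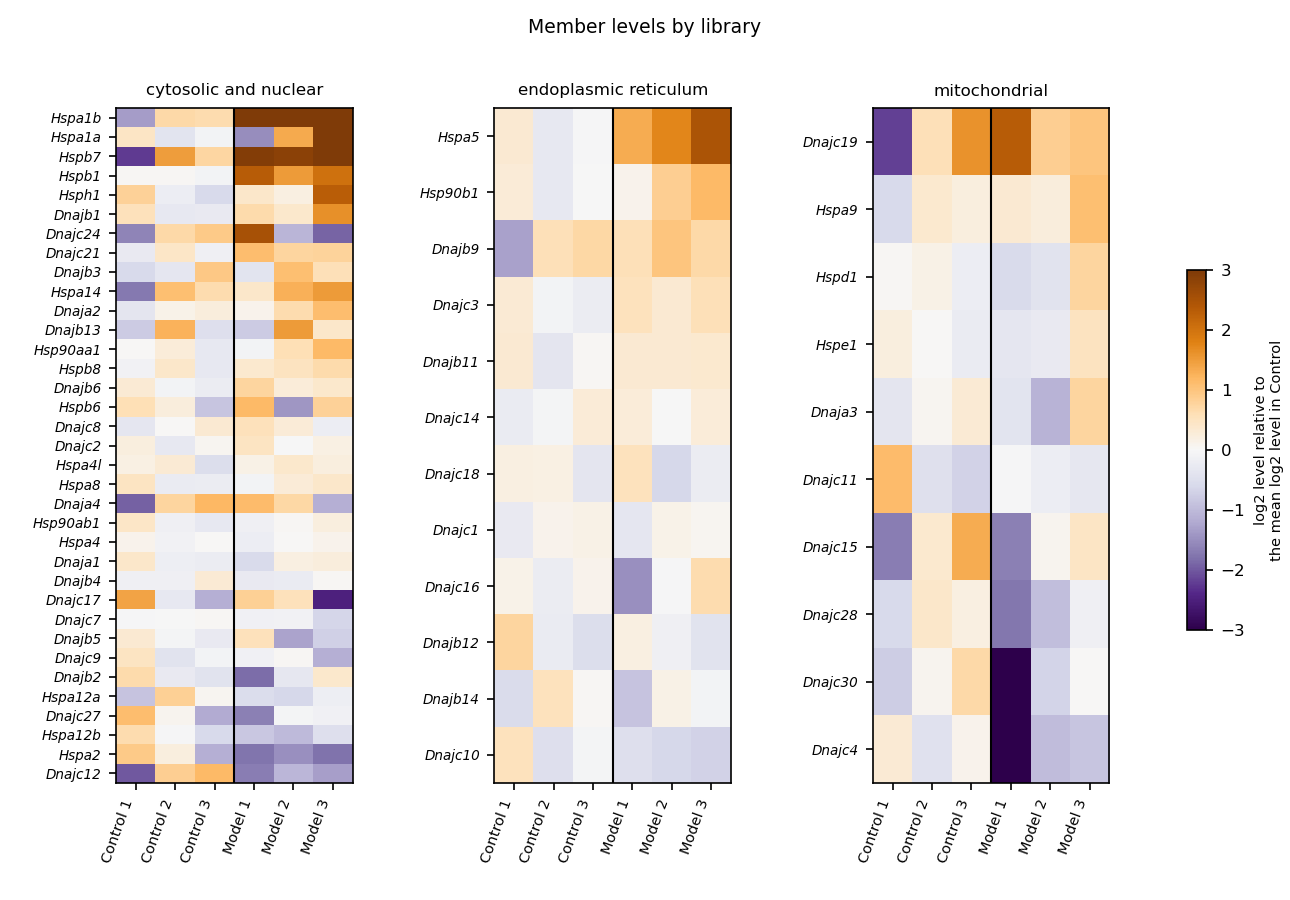
Level of each tested member in each library on the log2 scale, relative to the mean log2 level in Control, with 3 panels for the compartments; values past ±3 take the end colours and a black line parts Control from Model. Hspa1b and Hspa5 are high across Model, Model 3 is the highest library for Hsph1, Dnajb1, Hspd1 and Hspa9, and several DNAJ genes vary as much within groups as between them.

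In the ER, the HSP70 BiP rose and its co-chaperones gave mixed values. Hspa5, which encodes BiP, binds nascent chains in the ER lumen and keeps the stress sensors silent, lies at chr2:34771970-34777547 on the plus strand. It was measured at 566, 362 and 432 CPM in Control and at 1111, 1507 and 2457 CPM in Model. Every Model library was above every Control library, and Model 3 was the highest. The log2 fold change was 1.899 (SE 0.33, adjusted p = 0.0061), and it was 1.52 without Model 3 (adjusted p = 0.0161). The call was lost only when a fold change of more than 1 on the log2 scale was required (adjusted p = 0.108).

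Hsp90b1 (GRP94), the HSP90 of the ER that folds integrins and Toll-like receptors, was at 662, 441 and 538 CPM in Control and at 576, 972 and 1204 CPM in Model. Model 1 lay within the Control range, and the log2 fold change of 0.75 (SE 0.30) did not pass (adjusted p = 0.235). Dnajc3 (p58IPK), a DNAJ partner of BiP, was at 169, 128 and 116 CPM in Control and 197, 172 and 201 CPM in Model, with no overlap (0.47, SE 0.24, adjusted p = 0.384). These are the 3 members whose promoters held the ER stress response element, and 1 of them passed the test.

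The remaining ER co-chaperones stayed short of the threshold in either direction. Dnajb11, which brings unfolded clients to BiP, was at 55.3 to 91.1 CPM in Control and close to 91 CPM in all Model libraries (90.5 to 92.6 CPM; 0.32, SE 0.30, adjusted p = 0.685). Dnajb9, which returns BiP to IRE1, was at 8.27, 31.4 and 35.1 CPM in Control and at 31.6 to 42.3 CPM in Model (0.53, SE 0.56, adjusted p = 0.732). Dnajc10 (ERdj5), a reductase that opens disulfide bonds before degradation, was at 177, 88.9 and 119 CPM in Control and 88.6, 80.2 and 76.8 CPM in Model. Its values went the other way, without overlap (log2 fold change -0.65, SE 0.30, adjusted p = 0.315). Hspa13, an HSP70 of microsomes, had at most 116 counts, in Control 3, and was not tested. The membrane-bound Dnajb12 and Dnajb14 had fold changes of -0.21 and -0.28 (adjusted p = 0.870 and 0.867). Plasma cell markers, of cells rich in ER, summed to 157 to 171 CPM in Control and 203 to 239 CPM in Model, with 1 of 4 tested markers higher. Their part in the Hspa5 value was not tested.

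Mitochondrial members gave no call, and the fold changes of HSP60 and HSP10 were near 0. Hspa9 (mortalin), which pulls proteins through the inner membrane, was at 219, 424 and 388 CPM in Control and at 416, 394 and 707 CPM in Model (fold change 0.56 on the log2 scale, SE 0.31, adjusted p = 0.426). Hspd1 (HSP60), the folding chamber of the matrix, was at 275, 298 and 235 CPM in Control and at 180, 201 and 454 CPM in Model (0.05, SE 0.33, adjusted p = 0.972). Hspe1 (HSP10), the lid of that chamber, was at 53.2 to 72.7 CPM in Control and 49.4 to 89.4 CPM in Model (0.01, SE 0.35, adjusted p = 0.995). In Hspd1 and Hspe1, Model 1 and Model 2 were the lowest of the 6 libraries and Model 3 the highest. Without Model 3 the fold changes were -0.50 and -0.32. The promoters of these genes held the longest run of heat shock elements, shown above, and neither passed the test. The exons of Hspd1 and Hspe1 overlap by 112 bases on opposite strands, and with no stated strand setting reads there cannot be told apart.

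The mitochondrial DNAJ genes were scarcer and more variable. Dnaja3, a partner of mortalin, ranged from 44.3 to 71.1 CPM in Control and from 26.7 to 97.3 CPM in Model (-0.06, SE 0.46). Dnajc4 was at 25.4, 14.8 and 21.7 CPM in Control and at 1.01, 9.98 and 10.9 CPM in Model, without overlap (-1.50, SE 0.91, adjusted p = 0.470). Dnajc15 and Dnajc19, J proteins of the inner membrane import motor, had fold changes of -0.58 (SE 0.82) and 0.96 (SE 1.29). That of Dnajc19 ran from 0.29 without Model 1 to 1.99 without Control 3. Dnajc11, of the complex that shapes the cristae, had -0.43 (SE 0.44) and 0.38 without Control 1, its highest library at 178 CPM. With SEs from 0.44 to 1.29 on the log2 scale, small changes in these genes were not detectable.

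The 5 tested members of other or uncertain location also gave no call. Dnajc13, an endosome protein, had the highest level per length of them and lay between 202 and 324 CPM in all libraries (log2 fold change -0.02, SE 0.24). Dnajc5, which chaperones vesicle proteins in nerve and secretory cells, was at 19.7, 20.4 and 22.9 CPM in Control and 39.3, 46.8 and 15.0 CPM in Model (0.68, SE 0.54, adjusted p = 0.614). Dnajc25 and Dnajc6, the latter a clathrin uncoating partner, had 0.18 (SE 0.60) and -0.41 (SE 0.54).

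Comparing compartments by summed level per length, the ER class held 387 ± 74.1 CPM per kb in Control and 780 ± 238 in Model (SD, n = 3). Its libraries were 467, 321 and 372 in Control and 561, 744 and 1033 in Model, without overlap. The cytosolic and nuclear class held 1210 ± 242 and 1599 ± 291 CPM per kb, and the mitochondrial class 278 ± 21.2 and 302 ± 128, both with overlap between groups. The mitochondrial sum was 223 and 233 in Model 1 and Model 2, under all Control libraries, and 449 in Model 3. These are sums of levels led by a few genes, and the ER sum does not show a rise across its class. Of the ER sum, Hspa5 held 107 ± 24.5 CPM per kb in Control and 400 ± 164 in Model (SD, n = 3). The 12 tested ER members had a median log2 fold change of 0.06, with 6 positive and 6 negative. Hspa5 alone made up 5.58% ± 0.66 of the summed level of all members in Control and 14.4% ± 2.5 in Model (SD, n = 3), and Hspa8 with Hsp90ab1 made up 38.1% ± 4.87 and 29.3% ± 3.2.

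Ratios between the matching proteins of 2 compartments remove any shift that both genes share. Hspa5 to Hspa8, ER against cytosolic HSP70, was 0.291, 0.310 and 0.366 in Control and 0.841, 0.890 and 1.34 in Model, per kb. The ER gene was thus well under the cytosolic one in Control, and close to it in Model 1 and Model 2 and above it in Model 3. That ranking depends on the exon lengths used, while the change of the ratio between groups does not. The mean log2 ratio differed by 1.64 and the groups did not overlap. An exact two-sided permutation test gave p = 0.1, the smallest that 3 against 3 allows (0.15 adjusted over 3 pairs). With so few samples this test cannot reach the threshold used for genes, so its p-values decide nothing about the ratios. Hsp90b1 to Hsp90ab1, ER against cytosolic HSP90, was 0.312, 0.309 and 0.416 in Control and 0.409, 0.606 and 0.655 in Model, a mean log2 difference of 0.67 with overlap (p = 0.2 in the same exact test, 0.2 adjusted). Hspa1b to Hspa8, inducible against constitutive HSP70, differed by 4.54 on the log2 scale (exact p = 0.1, 0.15 adjusted). This value rests on the uncertain split of reads. Hspa5 and Hspa1b were already called higher and Hspa8 was not called, so their ratios to Hspa8 are not evidence separate from those calls. With Hspa1a and Hspa1b summed per kb, the ratio to Hspa8 was 0.0191, 0.0255 and 0.0291 in Control and 0.0656, 0.110 and 0.475 in Model, without overlap. Within the cytosolic HSP90 pair, Hsp90aa1 to Hsp90ab1 was 0.150 to 0.269 in Control and 0.212 to 0.383 in Model. Between HSP60 and HSP10, Hspd1 to Hspe1 was 2.11 to 2.61 in Control and 2.03 to 2.84 in Model.

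Partners of the cytosolic chaperones were read from a list of 30 genes, 29 of them tested. Of these 1 rose and 1 fell, beside 2.71% of all tested genes called higher and 1.36% called lower. The 1 that rose and the 1 that fell are both immunophilins that bind HSP90 in steroid receptor complexes. Fkbp5 was at 85.2, 164 and 151 CPM in Control and at 562, 521 and 582 CPM in Model (fold change 2.06 on the log2 scale, SE 0.28, adjusted p = 0.00121). Fkbp4 was at 228, 102 and 94.8 CPM in Control and at 50.2, 41.7 and 58.5 CPM in Model (-1.50, SE 0.36, adjusted p = 0.0381). Both sets of libraries were apart. The fall of Fkbp4 did not pass without Control 1 (-0.98, adjusted p = 0.147), without Model 1 (adjusted p = 0.119), without Model 2 (adjusted p = 0.109) or without Model 3 (adjusted p = 0.0629). Nor did it pass with limma-voom (adjusted p = 0.0789), without Control 1 and Model 2 together (0.257) or with a required log2 fold change of 1 (0.56), so that it was called in 8 of 15 alternatives.

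The median log2 fold change of the 29 partners was 0.22, with 18 positive and 11 negative. All Model libraries lay above all Control libraries for 6 partners and below them for 3, beside 12.1% and 11.4% of all tested genes. Hsf1, the heat shock transcription factor itself, was at 36.8 to 61.6 CPM in Control and 25.6 to 57.6 CPM in Model (-0.18, SE 0.43, adjusted p = 0.901). Bag3, a nucleotide exchange factor that HSF1 induces, was at 45.0 to 65.6 CPM in Control and 65.0 to 136 CPM in Model (0.94, SE 0.34, adjusted p = 0.185). Cryab, the small heat shock protein of lens and muscle whose exons overlap those of Hspb2, was at 14.9, 30.8 and 16.2 CPM in Control and 92.4, 54.0 and 47.8 CPM in Model. Its log2 fold change of 1.65 (SE 0.46) was short of the threshold (adjusted p = 0.0699). Chordc1, also on the list, had lower values in Model, without overlap. It was at 99.55, 44.0 and 91.3 CPM in Control and at 22.0, 35.9 and 42.2 CPM in Model (-1.23, SE 0.42, adjusted p = 0.149).

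Of 22 listed genes of ER folding and the unfolded protein response, 21 were tested and 2 rose. Of all tested genes, 2.71% were called higher. P4hb, a protein disulfide isomerase that is also a subunit of collagen prolyl hydroxylase, was at 183, 177 and 263 CPM in Control and at 830, 634 and 662 CPM in Model (fold change 1.77 on the log2 scale, SE 0.26, adjusted p = 0.00188). Ern1, which encodes the stress sensor IRE1, was at 15.0, 44.7 and 32.9 CPM in Control and at 101, 104 and 95.0 CPM in Model (1.70, SE 0.41, adjusted p = 0.0354). The groups of both genes were apart. Ern1 did not pass without Control 3, Model 1, Model 2 or Model 3 in turn (adjusted p between 0.0676 and 0.0941), nor with upper-quartile scaling (0.0608), without Control 1 and Model 2 together (0.109) or with a required log2 fold change of 1 (0.408). It was called in 8 of 15 alternatives.

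The median of the 21 genes was 0.61, and 17 had a positive fold change, beside 49.6% of all tested genes. Hyou1, an HSP110 of the ER, was at 114 to 158 CPM in Control and 172 to 256 CPM in Model, without overlap (0.64, SE 0.25, adjusted p = 0.221). The lectin chaperone Calr had a fold change of 0.31 (SE 0.23, adjusted p = 0.588), and Xbp1, the transcription factor that IRE1 activates by splicing, had 0.84 (SE 0.50, adjusted p = 0.459). Serpinh1, the collagen chaperone HSP47, had -0.47 (SE 0.25, adjusted p = 0.405). Of 12 listed genes of mitochondrial import, folding and proteolysis, 11 were tested and 0 were called, also by DESeq2 and limma-voom and at an unadjusted p under 0.05. Their median was -0.02, and Trap1, the HSP90 of mitochondria, had a fold change of -0.22 (SE 0.27, adjusted p = 0.787).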

How the data were processed

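Gene expression was compared between 3 Control and 3 Model samples, grouped by title. Raw counts per gene were used as deposited by the authors, per the file headers, and 6 per-sample columns of normalized values were not used. Libraries were made after removal of ribosomal RNA and reads trimmed with cutadapt 1.9.3, per the labels' protocols. STAR 2.5.1b, edgeR 3.16.5 and the build mm10 appear in the submitters' processing notes. How reads were counted, and with which annotation and strand setting, is not given in the sources used here. Where exons of opposite strands overlap, or copies are near identical, counts are uncertain.

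The fit used edgeR 4.0.16 in R 4.3.3 (TMM scaling, filterByExpr with a minimum count of 10, quasi-likelihood test, two-sided, Benjamini-Hochberg over 13907 genes, threshold 0.05), after a test on simulated data. SE is the fold change over the square root of F. Alternatives used DESeq2 1.42.0, limma-voom (limma 3.58.1), RLE and upper-quartile scaling, other filters, a required log2 fold change of 1, the replicate block and left-out libraries. Levels per kb used the union of GENCODE M21 exons on GRCm38, and ranks between genes depend on that length. A count of 0 allows up to 3 counts, 0.0787 to 0.118 CPM by library, for counting error only. No 2 libraries of a group were duplicates. Named genes are the members past the test, the 3 highest per length and the 3 most positive and negative of each class with a mean of at least 8 CPM, and key chaperones and partners. Members and lists were chosen with earlier results of these data known.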

Additional observations from a re-analysis of the deposited data

How the results depend on the processing

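Over 15 alternatives, the count of changed genes (566) was 317 to 440 with 1 library left out (317 without Model 1), 285 without Control 1 and Model 2 together, 1111 with no filter, 1217 with DESeq2 and 150 with a required log2 fold change of 1. The members changed (3) were 6 with no filter, which adds Hspa1a, Hspb7 and Hsph1, and 3 to 4 with 1 library left out. Hspb1 was called in every alternative, Hspa5 in all but the required fold change and Hspa1b in all but limma-voom. Without Control 1 and Model 2 together, log2 fold changes were 4.65 for Hspa1b (adjusted p = 0.0225) and 2.17 for Hspa5 (adjusted p = 0.0366). In the same setting they were 2.22 for Hspb1 (adjusted p = 0.00736) and 2.25 for Hspb7 (adjusted p = 0.0384). The ER median of 0.06 was 0.037 to 0.219 with 1 library left out, highest without Model 2, 0.22 without Control 1 and Model 2 together, 0.005 with upper-quartile scaling and -0.059 with no filter. The cause of these shifts was not tested.

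Whether replicate numbers pair the samples is not stated. Same-numbered deviations correlated by 0.147, 0.119 and 0.00367, and different-numbered ones by -0.159 to 0.0733. With 3 samples per group these values cannot decide it. With the number as a replicate block, 379 genes were higher and 196 lower, and 4 members were called, Hspb7 among them. Depth limits the members under a few CPM.

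Fold changes turned sign in 16 named members, none of them called in any alternative. With 1 library left out they spanned -0.17 to 0.20 for Dnaja1, -0.73 to 0.27 for Dnaja3, -0.45 to 0.26 for Dnajb12, -0.52 to 0.032 for Dnajb14, -0.29 to 0.004 for Dnajb4, -1.02 to 0.023 for Dnajb5, -0.74 to 0.38 for Dnajc11, -0.17 to 0.17 for Dnajc13, -1.08 to 0.22 for Dnajc15, -0.14 to 0.24 for Hsp90ab1, -0.10 to 0.051 for Hspa4, -0.034 to 0.896 for Hspb6, -0.50 to 0.28 for Hspd1 and -0.32 to 0.16 for Hspe1. Without Control 1 and Model 2 together they were 0.11 for Dnaja1 and Dnaja3, 0.31 for Dnajb12, 0.22 for Dnajb5, -0.006 for Dnajb9, 0.41 for Dnajc11, 0.17 for Dnajc13, 0.013 for Dnajc6 and 0.011 for Hspa4. With the replicate block they were 0.008 for Dnajc13, -0.086 for Hspd1 and -0.036 for Hspe1. With limma-voom they were 0.014 for Dnajc13, -0.081 for Hspd1 and -0.037 for Hspe1. Hsp90ab1 was at -0.003 with RLE scaling and with DESeq2, -0.031 with upper-quartile scaling and -0.021 with no filter. Hspe1 was at -0.031 with upper-quartile scaling and -0.011 with no filter.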
